A study of Mus musculus with 2 samples.

Results

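The immediate-early genes Fos, Fosb, Jun, Junb, Egr1, Ier2, Atf3, Dusp1, Cyr61 and Btg2 were followed through the cell classes of the mouse retina by single-cell RNA sequencing. They were taken by symbol from a table of 17087 genes, all 10 were found, and the rule used no measured value. The STZ library came from male C57BL/6 mice made diabetic with streptozotocin, a toxin of the insulin-producing cells of the pancreas. The dose was 55 mg/kg, injected intraperitoneally when the mice were between 3 and 5 weeks old. Diabetes was defined by a blood glucose over 300 mg/dL, and tissue was taken after 25 weeks of high glucose. The control library came from untreated mice. Each library pooled 3 retinas and each group had 1 library, so no replicate spread exists and no test was made. A difference between the libraries cannot be told apart from a difference between the dissociation or handling of the 2 pools. Intervals given are at 95% and cover counting error only.

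Immediate-early genes are switched on within minutes of a stimulus, without new protein synthesis, by kinase cascades that act on factors already bound at their promoters. Fos, Fosb, Jun and Junb encode subunits of AP-1, a dimeric transcription factor. Egr1 is a zinc-finger transcription factor, Atf3 a stress-induced relative of the AP-1 subunits, and Ier2 a small nuclear protein. Dusp1 is a phosphatase that switches MAP kinases off again, Btg2 restrains proliferation and promotes mRNA decay, and Cyr61 (also named Ccn1) is a secreted matrix protein that is also a target of YAP. In the retina Müller glia, the radial glia that span the tissue, are known to switch on such genes after injury or light, and enzymatic dissociation of tissue is itself known to induce them.

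The deposited table held 12393 STZ and 7169 control cells, with medians of 2062 and 3800 unique molecular identifiers (UMIs, counts of captured mRNA molecules) per cell. After filtering on mitochondrial counts and removal of scored doublets, 8232 STZ and 5098 control cells remained, of which 30 had a barcode that occurs in both libraries. Clusters were drawn without the 10 genes and 62 other immediate-early genes, and were named from marker genes, with the ending -like. Müller glia-like cells numbered 1256 in STZ and 1291 in control, with medians of 3966 and 5664 UMIs, and each of their 4 clusters was led by at least 7 of 10 Müller markers. In 8 classes each library gave at least 50 cells. The unit of level is CPM, in which a gene's UMIs, summed over a class in 1 library, are scaled to 1000000 UMIs of that class.

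All 10 are protein-coding genes. Fos lies on the plus strand of chromosome 12 at 85473890 to 85477273 (GENCODE annotation of GRCm38, also called mm10). Cyr61 lies on the minus strand of chromosome 3 at 145646976 to 145649981, and Btg2 on the minus strand of chromosome 1 at 134075170 to 134079120. RefSeq promoter sequences on GRCm38.p6 were used for 8 of the 10, and the promoters of Egr1 and Ier2 are not reported here. The 4 shown are the 250 bases before the RefSeq start of the gene, chosen because they hold motif letters that recur among the 8 promoters. A link between these letters and the levels of the genes was not tested. Capitals mark TGACG (the core of a cyclic AMP response element), its full palindrome TGACGTCA, and TATAAA, each searched on both strands, and TGACG is counted again inside TGACGTCA. The positions are chr12:85473640-85473889 on the plus strand for Fos, and on the minus strand chr3:145649986-145650235 for Cyr61, chr17:26508473-26508722 for Dusp1 and chr1:134079156-134079405 for Btg2.
Fos: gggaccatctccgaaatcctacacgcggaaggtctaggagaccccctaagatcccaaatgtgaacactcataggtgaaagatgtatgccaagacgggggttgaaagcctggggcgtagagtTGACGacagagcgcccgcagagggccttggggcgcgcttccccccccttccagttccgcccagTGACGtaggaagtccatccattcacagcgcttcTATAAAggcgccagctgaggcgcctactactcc
Cyr61: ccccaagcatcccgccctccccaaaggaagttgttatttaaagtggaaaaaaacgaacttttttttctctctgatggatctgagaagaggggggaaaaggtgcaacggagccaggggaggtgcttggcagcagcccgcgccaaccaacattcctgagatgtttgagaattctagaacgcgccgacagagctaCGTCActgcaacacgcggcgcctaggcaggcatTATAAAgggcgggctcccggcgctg
Dusp1: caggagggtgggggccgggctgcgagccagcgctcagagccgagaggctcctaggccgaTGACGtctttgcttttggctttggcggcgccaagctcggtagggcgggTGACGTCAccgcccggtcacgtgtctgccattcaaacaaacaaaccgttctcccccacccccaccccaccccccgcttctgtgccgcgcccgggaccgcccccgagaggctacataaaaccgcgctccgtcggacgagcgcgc
Btg2: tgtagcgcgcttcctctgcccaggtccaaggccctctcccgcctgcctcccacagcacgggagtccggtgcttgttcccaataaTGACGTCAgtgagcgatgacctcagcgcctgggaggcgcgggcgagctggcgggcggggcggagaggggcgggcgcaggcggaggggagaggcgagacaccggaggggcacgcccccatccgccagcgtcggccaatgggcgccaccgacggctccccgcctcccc
Over the whole windows of 300 bases, which run 50 bases past the start, TGACG stood in 7 of the 8 promoters, all except that of Jun, and in 20.8% of all 32851 promoters of the table. The palindrome TGACGTCA stood in 2 of the 8, Dusp1 and Btg2, and in 1.79% of all promoters. TATAAA stood in 3 of the 8, Fos, Junb and Cyr61, and in 13.6% of all. In Fos the TGACG matches began 129 and 66 bases before the start and TATAAA 33 bases before it, and in Cyr61 they began 58 and 25 bases before it. The palindrome began 143 bases before the start in Dusp1 and 166 in Btg2. No match in the windows of these 8 was found to the CArG box (1.63% of all promoters), the AP-1 site TGANTCA (7.81%) or the EGR site GCGTGGGCG (0.612%). Egr1 and Ier2 are not among the 8, so the counts say nothing about their promoters. A match is a description of the letters, and a window without one says nothing about elements elsewhere.

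The 10 genes were high in Müller glia-like and vascular cells and low in neurons, in both libraries. Summed over the 10, the level was 10310 CPM in STZ and 12020 CPM in control Müller glia-like cells, which is 1.03% and 1.20% of all their UMIs. It was 7119 and 7618 CPM in endothelial-like cells, and 7228 and 7691 CPM in cells like pericytes or smooth muscle. Cone bipolar-like cells had 1139 CPM in STZ and 881.9 CPM in control, cone-like cells 944.4 and 859.7 CPM, amacrine-like cells 689.8 and 548.3 CPM, rod bipolar-like cells 641.2 and 587.6 CPM, and rod-like cells 388.9 and 461.5 CPM. Over the 16 points made of 8 classes and 2 libraries, each gene followed the sum of the other 9 (Pearson correlation of log2(CPM + 1) from 0.678 for Atf3 to 0.963 for Fosb). The points share the libraries and their depths, so this is a description.

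RNA released from broken cells reaches every droplet, and the Müller marker Glul (glutamine synthetase) measures how much Müller RNA a class carries. In cone-like cells Glul was at 0.822% of its Müller level in STZ and 0.744% in control, whereas the summed genes were at 9.16% and 7.15% of theirs. In cone bipolar-like cells Glul was at 1.45% and 1.34%, and the sum at 11.1% and 7.34%. In rod bipolar-like cells Glul was at 0.994% in both libraries, and the sum at 6.22% and 4.89%. Rod-like cells came nearest to the gauge, with Glul at 2.42% in both libraries and the sum at 3.77% and 3.84%. Fosb at 1.57% and 1.59%, Cyr61 at 1.13% and 1.14% and Fos at 2.08% and 2.48% of their Müller levels were below or hardly above Glul there, so these levels cannot be told apart from free RNA.

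**Figure D1:**
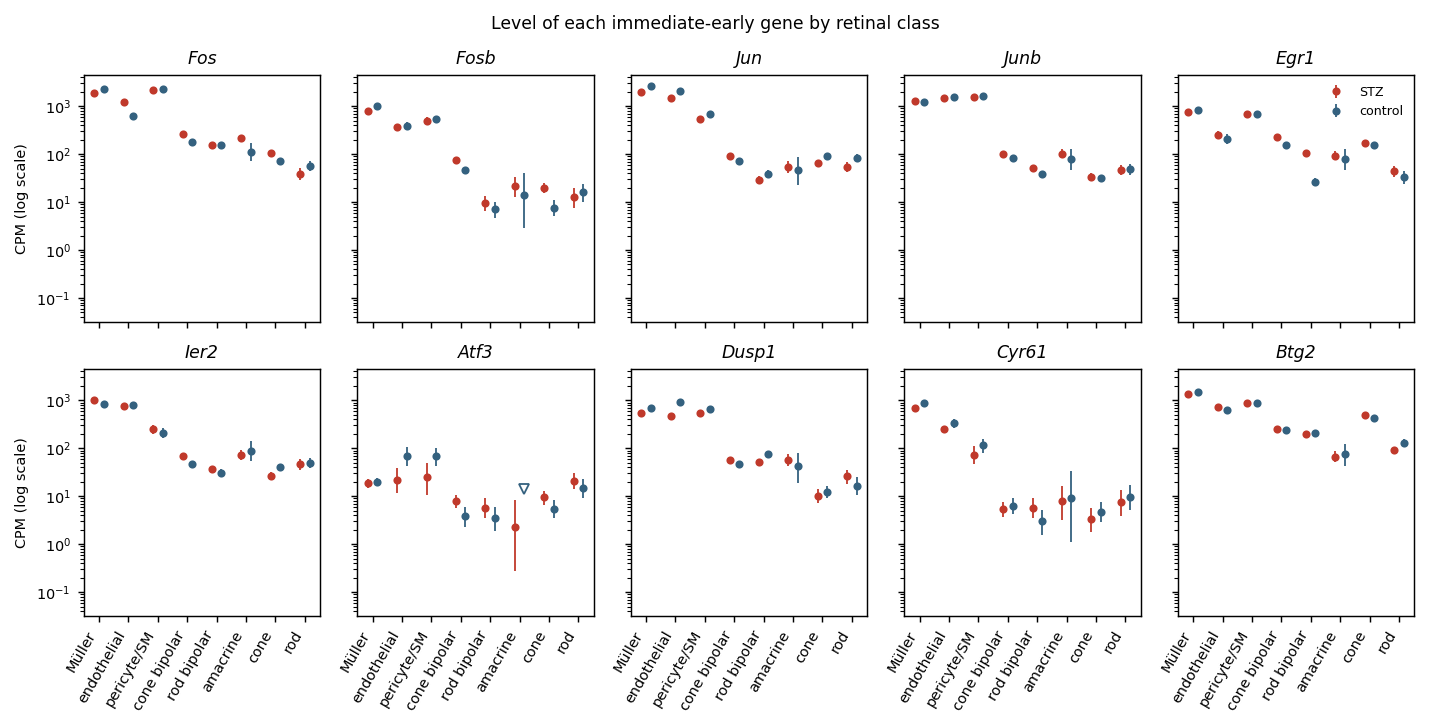
Level of each of the 10 genes in 8 retinal classes, in CPM on a log scale. STZ (red) stands left of control (blue), bars are exact Poisson 95% intervals from counting alone, and an open triangle marks the limit allowed by a count of 0. Müller glia-like and vascular classes lie above the neurons for 9 of the genes, while Atf3 stays near 20 CPM in Müller glia-like cells.

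Of the 4 AP-1 subunits, Fos and Jun divided the vascular classes, in opposite directions. Fos was at 2195 CPM in STZ and 2247 CPM in control cells like pericytes or smooth muscle, and in endothelial-like cells at 1230 CPM in STZ and 630.6 CPM in control. Jun ran the other way, with 531.0 and 675.3 CPM in cells like pericytes or smooth muscle and 1515 and 2057 CPM in endothelial-like cells. Junb was much the same in both classes, with 1531 and 1619 CPM in cells like pericytes or smooth muscle and 1513 and 1562 CPM in endothelial-like cells. Fosb was at 500.2 and 530.8 CPM in cells like pericytes or smooth muscle and 362.0 and 383.5 CPM in endothelial-like cells. Its intervals in these classes overlapped in control but not in STZ. In Müller glia-like cells Fos reached 1855 CPM in STZ and 2331 CPM in control, Jun 1968 and 2664 CPM, Junb 1299 and 1247 CPM, and Fosb 808.6 and 1003 CPM. Among the 8 classes the highest Fos levels in both libraries were those of Müller glia-like cells and of cells like pericytes or smooth muscle, then endothelial-like cells, then neurons, and the first 2 of these overlapped within their counting intervals in control but not in STZ. Among the neurons of both libraries Fos was highest in cone bipolar-like cells, at 256.8 CPM in STZ and 176.5 CPM in control, and lowest in rod-like cells, at 38.68 and 57.68 CPM, though cone bipolar-like and amacrine-like cells overlapped within their intervals in STZ, and all neighbouring neuronal classes did in control. Fosb was lower again in neurons, from 9.426 CPM in rod bipolar-like to 74.01 CPM in cone bipolar-like STZ cells, and from 7.034 to 45.61 CPM in the same classes of control. In rod bipolar-like cells Fosb was at 1.17% and 0.702% of its Müller level, close to Glul.

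Egr1 reached 751.0 CPM in STZ and 830.7 CPM in control Müller glia-like cells, and 673.1 and 698.9 CPM in cells like pericytes or smooth muscle. Unlike the AP-1 subunits, Egr1 in cone bipolar-like cells (222.7 CPM in STZ, 156.8 CPM in control) came close to its endothelial-like level (253.9 and 206.0 CPM). In cone-like cells it was at 169.0 and 152.9 CPM. Ier2 was at 1032 CPM in STZ and 841.1 CPM in control Müller glia-like cells, 765.1 and 808.1 CPM in endothelial-like cells, and 247.0 and 209.4 CPM in cells like pericytes or smooth muscle, and in neurons it stayed between 26.85 and 72.38 CPM in STZ and between 30.40 and 89.04 CPM in control. Atf3 was the exception to the class pattern, at 18.79 and 19.89 CPM in Müller glia-like cells and at 21.10 and 15.18 CPM in rod-like cells. It was at 22.30 and 69.72 CPM in endothelial-like cells, and at 24.70 and 67.82 CPM in cells like pericytes or smooth muscle. In control these vascular levels, from 22 and 23 UMIs, lay above those of all neuronal classes without overlap of their intervals. Atf3 UMIs were found in 3.74% of STZ and 5.42% of control Müller glia-like cells.

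Dusp1, the phosphatase, was at 542.9 CPM in STZ and 700 CPM in control Müller glia-like cells, 466.6 and 934.9 CPM in endothelial-like cells and 552.6 and 666.4 CPM in cells like pericytes or smooth muscle. Cyr61 showed a wide gap between glia and neurons. Its level was 682.1 and 864.1 CPM in Müller glia-like cells, 250.5 and 329.6 CPM in endothelial-like cells and 74.10 and 115.0 CPM in cells like pericytes or smooth muscle, and under 10 CPM in all 5 neuronal classes of both libraries. Cyr61 in neurons stood at 0.487% to 1.16% of its Müller level in STZ and at 0.349% to 1.14% in control, which is below Glul in each class and library. Other Müller markers gave other gauges, such as Aqp4 at 0.648% and Slc1a3 at 0.387% in STZ cone bipolar-like cells, where Cyr61 was at 0.803%. Btg2, in contrast, was well measured in neurons. It was at 1353 CPM in STZ and 1521 CPM in control Müller glia-like cells, and in cone-like cells at 499.7 and 438.0 CPM, above the other neuronal classes. Cone bipolar-like cells had 252.2 and 242.3 CPM of Btg2, rod bipolar-like cells 195.2 and 208.7 CPM, rod-like cells 91.43 and 132.1 CPM, and amacrine-like cells 66.72 and 74.98 CPM, and the intervals of the last 2 classes overlapped.

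Between the libraries most of these levels were close. Of the 80 pairs of gene and class, 70 were measured (at least 10 CPM over both libraries and at least 20 UMIs), 7 were at least 1.5-fold higher in STZ, 6 at least 1.5-fold lower, and 57 differed less. Among all measured genes, the share at least 1.5-fold higher ran from 3.87% in cone bipolar-like to 20% in endothelial-like cells. The share at least 1.5-fold lower ran from 3.05% in Müller glia-like to 19.6% in endothelial-like cells. The counts over all pairs are therefore a description, and each class is set beside its own shares below. The log2 ratio of STZ over control ran from -1.64 to 1.98.

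**Figure D2:**
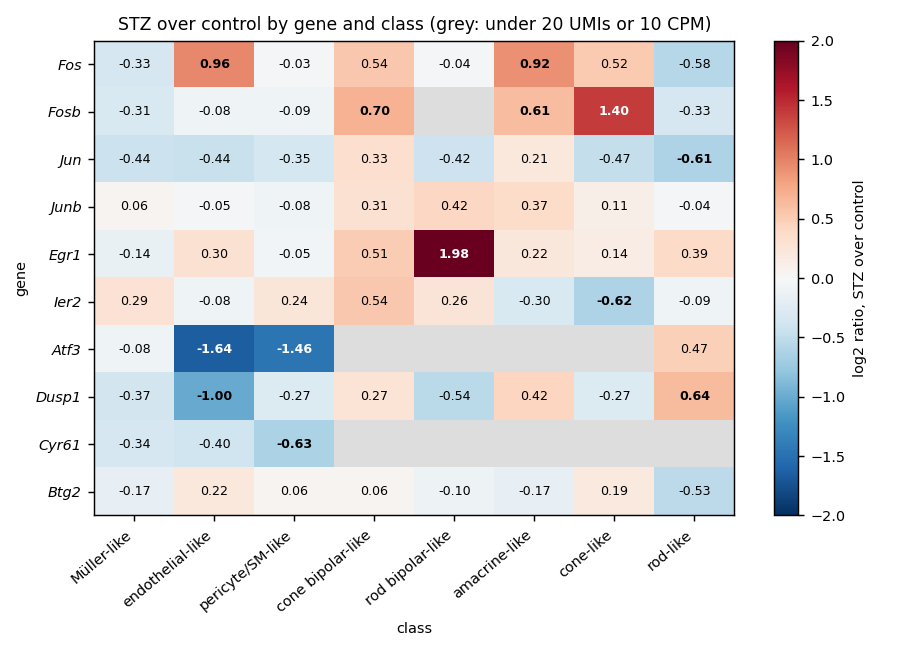
Log2 ratio of STZ over control for each gene (rows) and class (columns), red for higher and blue for lower in STZ, bold at 1.5-fold or more, grey where a pair had under 20 UMIs or under 10 CPM. The strongest red is Egr1 in rod bipolar-like cells (1.98), the strongest blue is Atf3 in endothelial-like cells (-1.64), and the Müller column holds no bold value.

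In Müller glia-like cells all 10 genes were measured, 0 were 1.5-fold higher and 0 were 1.5-fold lower, where 5.63% and 3.05% of 8879 genes were. Ier2 and Junb were above 0 on the log2 scale (0.29 and 0.06) and the other 8 below it, from -0.08 for Atf3 to -0.44 for Jun. Of those 8, Fosb, Egr1, Atf3 and Btg2 were above 0 in at least 1 of 15 alternatives. Jun had 9531 UMIs in STZ and 17947 in control, and its level was 1.35-fold lower in STZ (1.32 to 1.39). The sum of the 10 was 1.17-fold lower (1.15 to 1.18). Over 15 alternatives the log2 ratio of the sum lay between -0.28 and 0.05, and it was above 0 only with a stricter filter on cells (500 genes or more and mitochondrial counts of 10% or less).

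Endothelial-like cells held 400 STZ and 78 control cells with medians of 922 and 3781 UMIs, and 20% of 6448 genes were at least 1.5-fold higher and 19.6% at least 1.5-fold lower. At a finer resolution the class was replaced by a cluster of 84 STZ and 76 control cells, with medians of 3034.5 and 3850.5 UMIs, and one of 340 STZ and 2 control cells, with medians of 797 and 637 UMIs. Together these clusters held more STZ cells than the class, so some of their cells came from outside it. Of the 10 genes 1 was higher and 2 were lower. Fos was 1.95-fold higher in STZ (1.66 to 2.29), from 717 STZ and 199 control UMIs. Dusp1 was 2.0-fold lower (1.69 to 2.37), and Atf3 3.13-fold lower (1.51 to 6.76) from 13 and 22 UMIs. Atf3 turned to a log2 ratio of 0.08 under the stricter cell filter, which left 106 STZ and 69 control cells with medians of 3040.5 and 3859 UMIs and gave 1.18 for Fos and -0.64 for Dusp1. Müller markers moved with this class, since all 10 were detected in STZ and 9 in control (Kcnj10 at 0) and their sum was 6611 CPM in STZ and 2459 CPM in control. Red blood cell markers summed to 6924 CPM in STZ and 3.169 CPM in control, and their part in these ratios was not tested. With estimated free RNA taken off, 18.7% of UMIs in STZ and 2.69% in control, the log2 ratio was 0.885 for Fos and -1.09 for Dusp1, against 0.96 and -1.0 before. In cells like pericytes or smooth muscle (146 and 82 cells) 0 of 10 genes were higher and 2 were lower, where 17.9% and 14.6% of 5306 genes were. Rod markers summed to 3199 CPM in STZ and 1076 CPM in control there (10 of 10 detected in both), rod bipolar markers to 1340 and 209.4 CPM (8 and 6 of 8) and the class's own markers to 24600 and 34390 CPM (9 of 9 in both), and free RNA was estimated at 13.9% and 3.41% of UMIs. The part of these in the ratios was not tested. The lower genes were Atf3, at 24.70 and 67.82 CPM from 8 and 23 UMIs, and Cyr61, 1.55-fold lower with an interval that includes no difference (0.91 to 2.70). Both turned round without the cell filter, to log2 ratios of 0.52 and 0.45, and Atf3 also with doublets kept, to 0.04. The other 8 differed by 1.27-fold or less. Of the 3 clusters of this class, 1 with 51 cells, led by the smooth muscle genes Tagln, Myh11 and Acta2, held STZ cells and 0 control cells.

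Rod bipolar-like cells gave the largest difference of all 70 pairs, that of Egr1. Its level was 104.0 CPM in STZ, from 342 UMIs in 809 cells, and 26.38 CPM in control, from 105 UMIs in 885 cells, a 3.94-fold difference (3.16 to 4.95). At equal depth of 1000 UMIs, Egr1 was found in 8.61% of STZ cells (6.71 to 10.8%) and 1.96% of control cells (1.14 to 3.12%), and without thinning in 25.3% and 9.72%. Of 7 measured genes it was the only one past 1.5-fold in this class, 1 higher and 0 lower, where 5.13% and 6.04% of 7910 genes were. Fos was at 152.6 and 156.5 CPM in the same cells, and Dusp1 at 51.38 and 74.61 CPM. The class fell into 2 clusters that separated the libraries, 772 STZ with 30 control cells and 37 STZ with 855 control cells. Egr1 was higher in STZ within both, at 103.2 against 13.32 CPM (333 and 2 UMIs, ratio 2.13 to 64.3) in the first and at 144.3 against 26.89 CPM (9 and 103 UMIs, ratio 2.39 to 10.6) in the other. Of markers of other cells, Glul was at 109.2 CPM in STZ and 105.0 CPM in control, cone markers summed to 2469 and 1825 CPM (9 of 9 detected in both), rod markers to 1092 and 829.0 CPM (10 of 10 in both) and red blood cell markers to 13.68 and 1.256 CPM (4 and 2 of 4). The part of these in the ratio was not tested. The log2 ratio was between 1.07 and 2.35 under all 15 alternatives.

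Cone bipolar-like cells (1607 STZ and 1238 control cells, medians of 3533 and 3915.5 UMIs) were higher in STZ for all 8 measured genes, with a median log2 ratio of 0.42 beside -0.03 for all genes. Only Fosb passed 1.5-fold, so that 1 of 8 was higher and 0 lower, where 3.87% and 4.04% of 8858 genes were. Fosb was at 74.01 and 45.61 CPM, 1.62-fold higher (1.37 to 1.92). Fos at 1.45-fold, Ier2 at 1.45-fold and Egr1 at 1.42-fold lay just under the line, and Btg2 at 1.04-fold was level. Jun and Btg2 were below 0 in at least 1 alternative. The subtypes were uneven for Fosb. In a cluster of 315 and 234 cells with Grik1 among its leading genes it was at 129.0 CPM in STZ and 48.45 CPM in control, and in another of 160 and 59 cells at 178.2 and 75.99 CPM. In the cluster marked by Cck it was at 78.80 and 73.44 CPM, and in the other 4 the STZ level was 1.24-fold to 1.32-fold higher with intervals that include no difference. Fos and Egr1 were uneven too, 3.14-fold and 3.12-fold higher in the cluster of 315 and 234 cells. In that of 160 and 59 cells they were 2.2-fold and 2.37-fold higher. Egr1 was also 3.99-fold higher in a cluster of 180 and 113 cells. In the remaining clusters Fos ran from 1.1-fold lower to 1.54-fold higher, and Egr1 from 1.02-fold to 1.4-fold higher. The sum of the 10 was above 0 on the log2 scale under all 15 alternatives, from 0.23 to 0.60.

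In cone-like cells 1 of 8 measured genes was higher and 1 lower, where 5.2% and 3.14% of 8080 genes were. Fosb was at 19.95 CPM in STZ and 7.556 CPM in control, from 78 and 30 UMIs, 2.64-fold higher (1.71 to 4.17). In control that level is 0.754% of the Müller level, beside 0.744% for Glul, and cannot be told apart from free RNA, while in STZ it is 2.47%, beside 0.822% for Glul. Ier2 was 1.54-fold lower (1.20 to 1.98), and its log2 ratio turned to 0.65 when classes were taken from each cell's own marker genes. Fosb was at 22.66 and 6.542 CPM in the cone-like cluster marked by Opn1mw, and at 13.95 and 9.184 CPM in that marked by Opn1sw, where the interval of the ratio (0.705 to 3.33) includes no difference. In rod-like cells 1 of 9 was higher and 1 lower, where 8.11% and 9.13% of 7580 genes were. Dusp1 was 1.56-fold higher with a ratio between 0.895 and 2.77, from 37 and 22 UMIs, and Jun 1.53-fold lower (1.13 to 2.07), from 77 and 109 UMIs. Jun was at 2.75% of its Müller level in STZ and 3.11% in control, and Dusp1 at 4.79% and 2.39%. The Müller markers Glul, at 2.42% in both libraries, and Rlbp1, at 2.90% and 3.15%, stood beside them. The Jun levels and the control level of Dusp1 in rod-like cells therefore cannot be told apart from free RNA. The rod-like values depended on how doublets were removed. The cells scored as doublets there held 3536 CPM of the 10 genes in STZ and 5328 CPM in control. The log2 ratio of the sum was -0.25 with doublets removed by the same rule in both libraries, -0.21 with doublets kept and -1.60 with doublets removed in STZ alone, while with classes from marker genes it was 0.65. Amacrine-like cells (233 and 57 cells) had 2 of 8 genes higher and 0 lower, where 15.8% and 13.6% of 7379 genes were. Fos was at 212.6 and 112.5 CPM, 1.89-fold higher (1.23 to 3.02), from 188 and 24 UMIs, and Fosb had 19 and 3 UMIs, too few to tell apart (ratio 0.45 to 8.06).

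The similar class level in Müller glia-like cells hid a different spread. Cells were thinned to 1000 UMIs each, which left out 239 STZ and 72 control cells, and the UMIs of the 10 genes were summed in the 1017 STZ and 1219 control cells that remained. The median cell held 6 such UMIs in STZ and 4 in control, the middle 50% of cells 1 to 15 and 1 to 20, and the highest cell 49 and 51. No UMI was found in 23.6% of STZ and 24.5% of control cells. Cells with 5 to 15 UMIs made up 28.9% in STZ and 17.0% in control, while cells with 20 or more made up 14.7% and 26.3%. So at 1000 UMIs the share of cells without a UMI was close, the middle was fuller in STZ, and the high end was fuller in control. Cells without a UMI made up 30.3% in STZ and 35.6% in control at 500 UMIs, where 1255 and 1291 cells remained. At 2000 UMIs, with 775 and 1120 cells, they made up 13.0% and 15.1%. At 2000 UMIs, where the bounds double, cells of the middle range made up 27.6% and 17.0% and those of the high range 15.5% and 27.9%, and at 500 UMIs 30% and 15.8% of cells in the middle range and 14.7% and 24.0% in the high range.

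**Figure D3:**
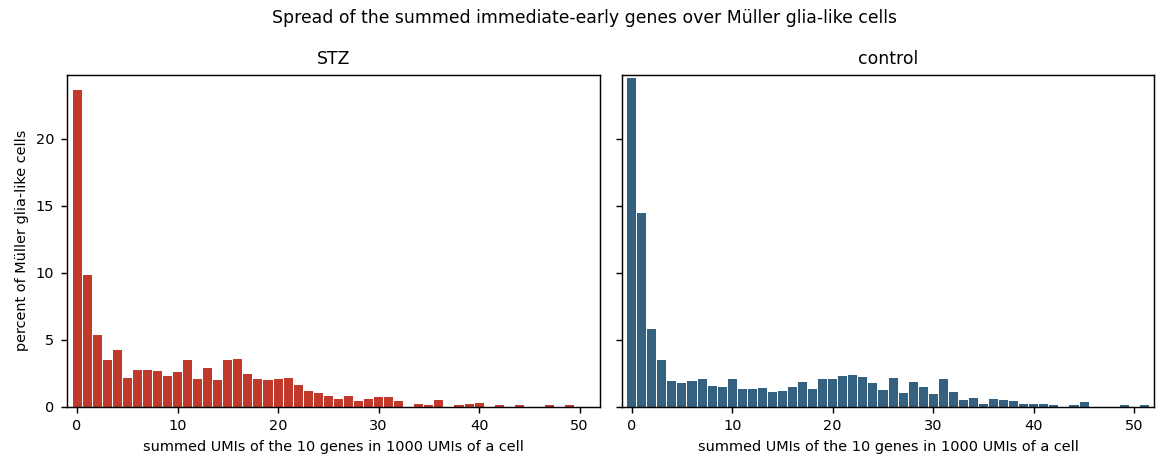
Percent of Müller glia-like cells (y) by the summed UMIs of the 10 genes among 1000 UMIs of the cell (x), 1017 STZ cells left and 1219 control cells right. Both libraries have a peak at 0 and a second rise, near 16 UMIs in STZ and near 22 UMIs in control, with 14.7% of STZ cells and 26.3% of control cells at 20 or more.

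Overdispersion, the variance beyond counting noise divided by the squared mean, was 0.992 for the sum in STZ and 1.16 in control. For single genes it ran from 0.959 (Egr1) to 2.05 (Fosb) in STZ and from 1.16 (Jun) to 2.05 (Dusp1) in control, leaving out Atf3, which had UMIs in 1.57% and 1.64% of thinned cells. The median of 1372 genes was 0.183 in STZ and 0.175 in control, and between 0.875% and 5.90% of those genes lay above each of the 9 in STZ, and between 1.17% and 3.64% in control. Overdispersion was lower in STZ for 8 of the 9, with Fosb the exception, where 48.8% of all 1372 genes were lower. In 0 of the 9 was the STZ value at most 0.5 of the control value, as it was for 28% of all those genes. Without thinning the order of the sum turned round, to 1.87 in STZ and 1.47 in control.

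**Figure D4:**
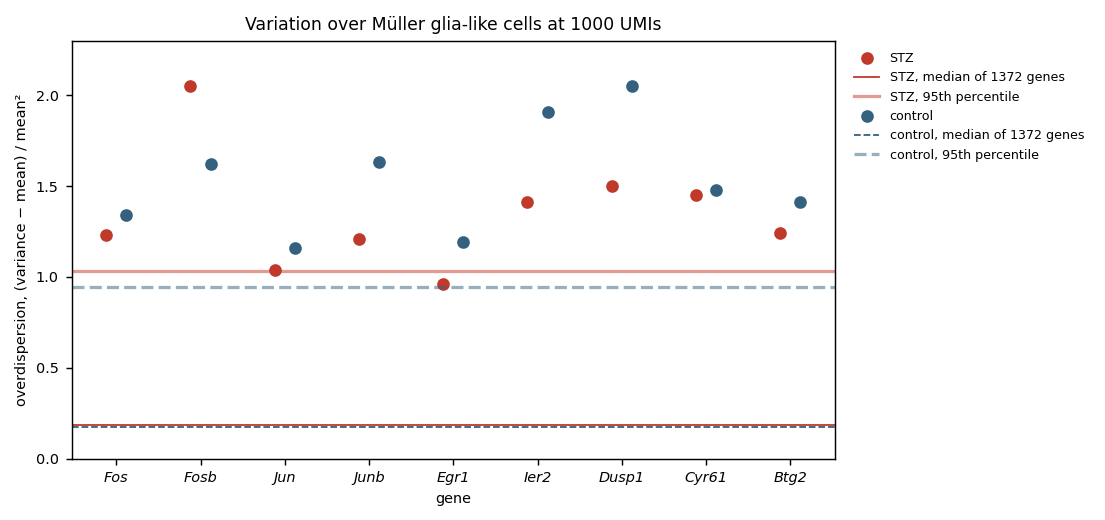
Overdispersion of 9 of the genes over Müller glia-like cells thinned to 1000 UMIs (y) by gene (x), STZ left of control, with lines at the median and the 95th percentile of 1372 genes in each library. All 9 lie far above the medians of 0.183 and 0.175, and only Fosb is higher in STZ.

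The genes varied together from cell to cell. Without Atf3, the 36 pairs of genes had a median Pearson correlation of 0.429 in STZ (0.279 to 0.616) and 0.540 in control (0.407 to 0.736) over the thinned cells. The highest pair in both was Fos with Jun, and the lowest in STZ was Egr1 with Dusp1. The cells share a library and the summed UMIs also followed the UMIs of the cell before thinning (Spearman 0.390 in STZ and 0.466 in control) and its mitochondrial share (0.158 and 0.399). At or below 10% mitochondrial counts the sum was 8694 CPM in STZ and 8525 CPM in control, and above it 11530 and 15870 CPM. Below 2000 UMIs it was 6299 and 4299 CPM, between 2000 and 5000 UMIs 5439 and 6147 CPM, and above 5000 UMIs 12260 and 13720 CPM. Overdispersion of the sum was 1.58 in STZ and 2.06 in control at or below 10% mitochondrial counts, and 0.716 and 0.578 above it. It was 1.37 and 4.73 below 2000 UMIs, 2.48 and 2.47 between 2000 and 5000 UMIs, and 0.544 and 0.746 above 5000 UMIs. The lower overdispersion in STZ was thus turned round above 10% mitochondrial counts and absent between 2000 and 5000 UMIs.

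**Figure D5:**
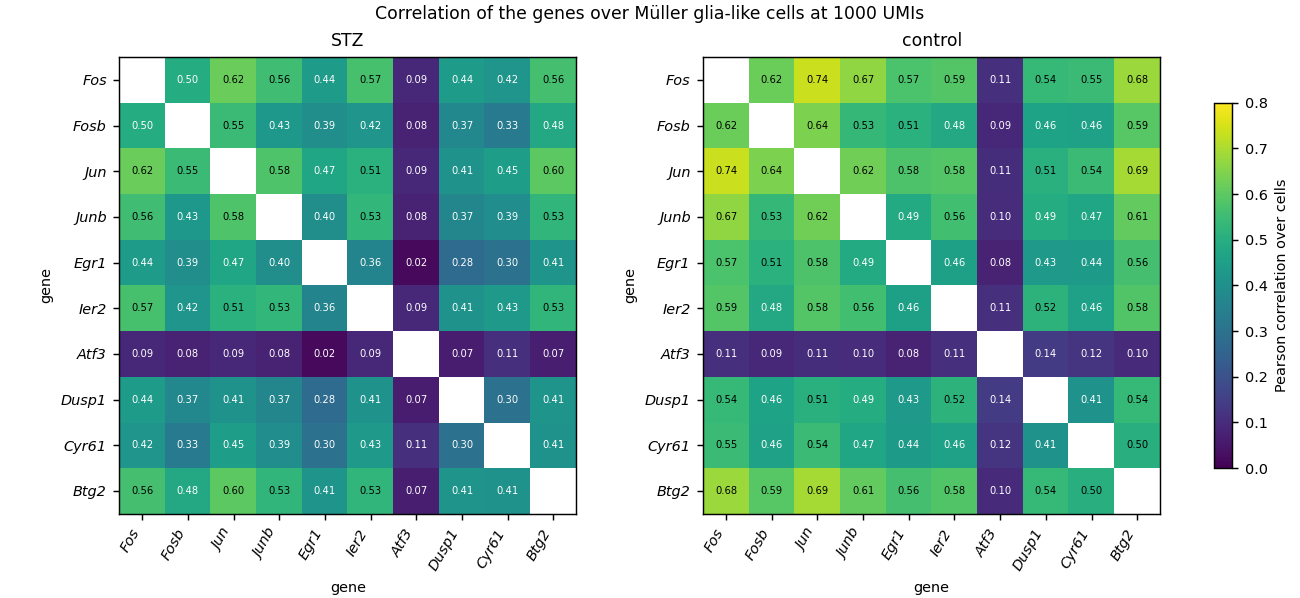
Pearson correlation of each pair of the 10 genes over Müller glia-like cells at 1000 UMIs, STZ left and control right. The median pair is higher in control, Fos with Jun is highest in both (0.616 in STZ and 0.736 in control), and the pairs with Atf3 are the lowest.

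Müller glia-like cells fell into 4 clusters although the genes had been kept out of the clustering, and the clusters differed in them. The largest held 736 STZ and 683 control cells, and there the sum was 10620 CPM in STZ and 5345 CPM in control, 1.99-fold higher (1.95 to 2.02). In that cluster Ier2 was 3.13-fold higher (1042 and 332.5 CPM), Junb 2.25-fold (1340 and 595.8 CPM), Btg2 2.19-fold and Jun 1.66-fold. A second cluster, 2.95% of STZ and 32.1% of control Müller glia-like cells (37 and 414 cells), had 18330 and 22120 CPM, and Cyr61, Fosb, Jun and Dusp1 were among its leading genes. Fos was 1.53-fold lower there in STZ (2829 and 4334 CPM) and Cyr61 level (1518 and 1507 CPM). Another, of 354 and 65 cells with medians of 985.5 and 1181 UMIs, had 6474 and 1810 CPM, and the last, of 129 cells in each library, had 4919 and 5196 CPM. The 1.17-fold lower class level in STZ thus joined a large cluster with a higher level in STZ to a cluster with the highest level that was mostly control cells. This division depends on the resolution of the clustering. At a resolution of 0.5, a Müller glia-like cluster held 777 STZ and 1098 control cells, more than any of these 4 in each library. The folds within clusters therefore hold for this division only, and those at 0.5 are not given here.

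Among 1332 genes in at least 10% of Müller glia-like cells and outside the lists, Hes1, a transcription factor of the Notch pathway, followed the sum most closely, with correlations of 0.422 in STZ and 0.437 in control over 1017 and 1219 cells. Actb (0.340 and 0.322), Actg1 (0.272 and 0.260) and H3f3b (0.253 and 0.348), which encode actins and a histone, were also among the most similar. The most opposite were Gm42418 (-0.331 and -0.267) and Acsl3, a fatty acid ligase (-0.200 and -0.325). Over the 16 points of class and library the most similar of 9359 genes were Acads, Oasl2, Gm26669, Idh2 and Gm26532, with correlations from 0.963 to 0.966. Of the 62 other immediate-early genes, 12 were in enough Müller glia-like cells, with a median correlation of 0.216 and 0.287, beside -0.003 and -0.011 for all 1363 genes. The 5 heat shock genes measured there, which also respond to cell isolation, had medians of 0.028 and 0.003, and the 3 gliosis genes 0.098 and 0.095, while 0 of 22 upstream regulators were in enough cells. Of the gliosis genes Vim gave that median, S100a6 was at -0.054 and 0.012, and Cebpd at 0.360 and 0.424. Cebpd is also among the other immediate-early genes counted here.

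In the other 7 of the 8 classes the overdispersion of the sum was lower. At 1000 UMIs it was 0.564 in STZ and 0.828 in control endothelial-like cells, 0.930 and 0.694 in cells like pericytes or smooth muscle, and 0.624 and 0.470 in cone bipolar-like cells. The 0.930, from 91 cells, was close to the 0.992 of STZ Müller glia-like cells. The tenth of cells with the most UMIs held 36.7% in STZ and 31.2% in control cells like pericytes or smooth muscle. In Müller glia-like cells it held 31.9% and 32.1%. For overdispersion, rod bipolar-like cells had 0.161 and 0.0861, cone-like cells 0.575 and 0.158, rod-like cells 0.460 and 0.116, and amacrine-like cells 0.298 and -0.143. Endothelial-like cells without any of the 10 made up 7.14% in STZ and 6.76% in control, against the 23.6% and 24.5% of Müller glia-like cells.

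Of the 62 other immediate-early genes 44 were measured in Müller glia-like cells, 2 were at least 1.5-fold higher and 8 at least 1.5-fold lower, beside 5.63% and 3.05% of all genes, and the median log2 ratio was -0.07. With the stricter cell filter 7 of 41 were higher and 3 lower, but the shares of all genes under that filter are not given here. Those counts therefore have no background to be read against. Gadd45g, a growth arrest gene, was at 127.8 CPM in STZ and 70.95 CPM in control (1.8-fold higher), and Egr2, a relative of Egr1, at 21.47 and 13.21 CPM. Ctgf, a matrix protein related to Cyr61, was at 258.0 and 452.3 CPM (1.75-fold lower), Btg1, a relative of Btg2, at 357.8 and 597.3 CPM, Errfi1, an inhibitor of the EGF receptor, at 36.33 and 60.27 CPM, and Spry4, an inhibitor of receptor kinase signalling, at 7.432 and 18.70 CPM. In endothelial-like cells 8 of 41 were higher and 16 lower, beside 20% and 19.6% of all genes there, among them Spry2, a relative of Spry4, at 68.62 and 6.338 CPM from 40 and 2 UMIs (ratio 2.81 to 92.5), Edn1, the vasoconstrictor endothelin, at 255.6 and 732.1 CPM, Plk2, a kinase, at 185.3 and 462.7 CPM, Cebpd at 255.6 and 95.07 CPM and Nr4a2 at 15.44 and 136.3 CPM. Cells like pericytes or smooth muscle had 5 of 33 higher and 10 lower, beside 17.9% and 14.6% of all genes, with Spry2 at 169.8 and 44.23 CPM, Cebpd at 453.9 and 162.2 CPM and Ctgf at 126.6 and 371.6 CPM.

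In neurons Gadd45b, which responds to stress and activity, was at 25.06 CPM in STZ and 10.08 CPM in control cone-like cells (2.49-fold higher), 53.45 and 23.53 CPM in rod-like cells, and 80.29 and 32.81 CPM in amacrine-like cells. The largest ratio in amacrine-like cells was that of Per1, a clock gene, at 40.71 and 9.373 CPM from 36 and 2 UMIs (ratio 1.12 to 37.2). In cone bipolar-like cells Spry4 was at 5.299 and 15.91 CPM, 3.0-fold lower, and Gadd45g, a relative of Gadd45b, at 98.21 and 63.22 CPM. In counts, 4 of 24 measured were higher and 1 lower in cone-like cells, beside 5.2% and 3.14% of all genes. The counts were 3 and 1 of 20 in rod-like cells, beside 8.11% and 9.13%, and 2 and 1 of 32 in cone bipolar-like cells, beside 3.87% and 4.04%. Rod bipolar-like cells had 1 and 1 of 26, beside 5.13% and 6.04%, and amacrine-like cells 7 and 0 of 25, beside 15.8% and 13.6%. In rod bipolar-like cells Jund, another AP-1 subunit, was at 301.0 and 193.9 CPM and Spry4 at 10.03 and 17.58 CPM. Of 22 upstream regulators, kinases and promoter-bound factors of these genes, 20 were measured in Müller glia-like cells, 1 was higher and 0 lower, again beside 5.63% and 3.05% of all genes. Of 11 heat shock genes, 1 was higher and 4 lower in Müller glia-like cells, beside the same shares, and 0 of 10 higher and 7 lower in cone-like cells, beside 5.2% and 3.14%. Of 15 gliosis genes, 10 were measured in Müller glia-like cells, 3 were higher and 0 lower, beside 5.63% and 3.05%. Socs3 and Cebpd of the gliosis list, and Srf and Crem of the upstream regulators, are also in the list of other immediate-early genes. The lists and members were known from earlier results of these data, so these counts are descriptions.

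In 2 further classes, given with their values here, control gave fewer than 50 cells, and an astrocyte-like cluster of 7 STZ and 8 control cells was not analysed here. Microglia-like cells, 88 in STZ and 25 in control with medians of 788 and 1826 UMIs, held 1996 CPM of the 10 genes in STZ and 25770 CPM in control. Of 9 measured genes 0 were at least 1.5-fold higher and 9 at least 1.5-fold lower, where 30.6% and 39.1% of 1134 genes were. Jun was at 266.2 CPM in STZ and 5586 CPM in control, and 4 control cells held at least 50% of the control UMIs of the 10 genes. With doublets kept, 121 STZ cells held 14700 CPM and 43 control cells 21030 CPM, and the log2 ratio of the sum was -0.52 in place of -3.69. The cells scored as doublets in that setting, 35 in STZ and 17 in control, held 19840 and 4034 CPM. With the stricter cell filter the log2 ratio was -0.47. In pigment epithelium-like cells, 165 in STZ and 49 in control, 7 of 7 measured genes were higher and 0 lower, where 20.8% and 18.6% of 2730 genes were, from 1 to 6 control UMIs a gene. Free RNA was estimated at 17.3% of their UMIs in STZ and 5.23% in control.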

How the data were processed

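The authors' deposited table holds raw UMI counts of 17087 genes in 19562 cells, whole numbers with the library given by the ending of each cell name. Cell Ranger 3.0.1, Seurat 3.0 and mm10 are named, per the submitters' processing notes. No cell exceeds 2999 genes and none is under 499 UMIs, so the table was filtered before deposit. The settings are not given in the sources used here. Columns left unused numbered 0.

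A cell was kept if it had 200 genes or more and no more than 20% mitochondrial counts. This removed 28.5% of STZ and 25.7% of control cells. Doublets were scored by the method of Scrublet and the top scores removed by the same rule in both libraries (0.8% per 1000 cells), 628 STZ and 227 control cells. Clustering used scanpy 1.11.5 with 2000 variable genes, 30 components, 15 neighbours and resolution 1.0, log values scaled within each library, without 72 immediate-early genes. A cluster was named where at least 3 markers of a class led it. The members, lists and markers were chosen with earlier results of these data known.

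UMI counts were summed per class and library. A count of 0 was set to 3 in ratios. Intervals are exact Poisson for levels, exact binomial (Clopper-Pearson) for shares and conditional binomial for ratios, treat each UMI as independent, and so understate the error where few cells hold most of a gene's UMIs. The ratios and the overdispersion were tested on simulated data. Named in the text are all members, up to 6 other immediate-early genes per class with the largest ratio, and 5 genes most like the members over classes and over cells. Of the genes most like the members, 1 is not reported here. Class markers and the most opposite genes are exceptions, and which of the selected genes to describe was chosen after their values were seen. The 14 alternatives covered filters, doublets, clustering, classes from marker genes, scaling, thinning, free RNA and shared barcodes, and 1 (doublets removed in STZ alone) was added after seeing the data.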

Additional observations from a re-analysis of the deposited data

Results flagged for a closer look

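Cells outside the 8 classes also held the 10 genes. A cluster of 1663 STZ and 13 control cells stayed unnamed because under 3 markers led it, and its median was 688 UMIs in STZ and 638 in control. The summed level was 3035 CPM in STZ (2940 to 3133) and 1136 CPM in control (604.6 to 1942), above the control level. Pigment epithelium-like cells, 165 in STZ and 49 in control, had 840.9 CPM in STZ and 234.3 CPM in control, from 223 and 22 UMIs, with 20.8% of 2730 genes at least 1.5-fold higher there. Their Glul level was 1218 CPM in STZ and 947.7 CPM in control. The part of free RNA was not tested for the unnamed cluster.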

How the results depend on the processing

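Each log2 ratio was recomputed under 15 alternatives. Of the 57 pairs under 1.5-fold, 34 changed sign in at least 1 alternative, and of the 13 past it, 6 did. Those 6 were Atf3 in endothelial-like cells (0.076 with the stricter cell filter), Atf3 in cells like pericytes or smooth muscle (0.517 with no filter and 0.044 with doublets kept), Cyr61 in the same cells (0.450 with no filter), Ier2 in cone-like cells (0.650) and Jun in rod-like cells (0.516) with classes from marker genes, and Dusp1 in rod-like cells (-0.082 with doublets kept and -1.18 with doublets removed in STZ alone). The cause was not tested. Fos and Dusp1 in endothelial-like, Egr1 in rod bipolar-like and Fosb in cone-like cells stayed past 1.5-fold under all 15. Overdispersion of the sum in Müller glia-like cells was 1.87 in STZ without thinning, and 1.59 in STZ and 2.09 in control with the stricter filter. Of the other immediate-early genes in Müller glia-like cells, 2 higher became 1 at 50 CPM, 0 at 2-fold and 7 with the stricter filter, and 8 lower became 1 at 2-fold and 3 with the stricter filter. The shares of all genes under these settings are not given here, so the changed counts have no background. No paired analysis was possible because each group has 1 library. Control cells were few in the endothelial-like, pericyte or smooth muscle-like and amacrine-like classes (78, 82 and 57) and fewer in the pigment epithelium-like and microglia-like classes (49 and 25).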

Other observations

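Cells over 20% mitochondrial counts, which were left out, held 1098 CPM of the 10 genes in 3533 STZ cells and 1195 CPM in 1844 control cells.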
